A study of Mus musculus with 2 samples.

Results

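The T cell receptor is the antigen receptor of T lymphocytes, and 10 genes that build it or mark the T cell lineage were followed in the mammary gland of wild-type mice and of mice with a disrupted microRNA locus. The genes were picked by symbol as Cd3d, Cd3e, Cd3g and Cd247 (signalling chains of the receptor), Cd4, Cd8a and Cd8b1 (coreceptors), and Tcf7, Lef1 and Foxp3 (transcription factors). All 10 had a row among the 21113 genes of each gene table. Both libraries were made from the gland of C57BL/6 animals aged 6 weeks after birth. The wild-type library is called WT. The other, called ILN/ILN, carried on both copies an IRES-LacZ-Neo (ILN) cassette placed in the Mir212/132 locus, which encodes the microRNAs miR-212 and miR-132. Each genotype had 1 library, so differences between them could not be checked against replicates and no test was made. Whether a library pooled several animals is not stated.

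A T cell recognises antigen through a variable receptor pair that has almost no cytoplasmic part, and the CD3 chains and the zeta chain carry the signal into the cell. CD4 and CD8 bind MHC class II and class I molecules beside the receptor and bring the kinase LCK to it, and they divide mature T cells into helper and cytotoxic lineages. TCF-1, encoded by Tcf7, and LEF-1 act early in the thymus and stay high in resting T cells, while FOXP3 defines regulatory T cells. The mammary fat pad of the mouse can hold a lymph node as well as scattered lymphocytes, and a dissected gland is a mixture of fat, epithelium, vessels, stroma and these immune cells.

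Promoter sequences are shown for the chains of the receptor complex, because these genes are used together in T cells while the size of their difference between the libraries varied, as the values that follow show. RefSeq promoters of build GRCm38.p6, from 250 bases before to 50 bases after a start site, were found for 8 of the 10 genes, with 13 promoters in all. Cd4 and Cd8b1 had no entry. Cd3d and Cd3g lie head to head on chromosome 9, with start sites 1355 bases apart, and the start site of Cd3e lies 27825 bases from that of Cd3d. Cd247 lies on chromosome 1. Each is printed 5′ to 3′ on the strand of its gene, and capitals mark matches on either strand to any of 6 short motifs, named after the sequences.
Cd3d, chr9:44981536-44981835, plus strand: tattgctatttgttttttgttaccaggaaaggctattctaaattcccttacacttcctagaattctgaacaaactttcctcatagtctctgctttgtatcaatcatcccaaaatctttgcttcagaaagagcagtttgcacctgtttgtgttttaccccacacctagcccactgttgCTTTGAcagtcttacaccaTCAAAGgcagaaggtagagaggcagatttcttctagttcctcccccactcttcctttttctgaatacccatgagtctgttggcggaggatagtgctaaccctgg
Cd3g, chr9:44980382-44980681, minus strand: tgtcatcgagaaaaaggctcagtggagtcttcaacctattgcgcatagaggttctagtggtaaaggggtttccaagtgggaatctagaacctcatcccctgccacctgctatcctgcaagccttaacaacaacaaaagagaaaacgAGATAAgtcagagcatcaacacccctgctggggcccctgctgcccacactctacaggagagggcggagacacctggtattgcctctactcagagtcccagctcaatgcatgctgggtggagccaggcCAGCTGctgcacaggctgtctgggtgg
Cd3e, chr9:45009562-45009861, minus strand: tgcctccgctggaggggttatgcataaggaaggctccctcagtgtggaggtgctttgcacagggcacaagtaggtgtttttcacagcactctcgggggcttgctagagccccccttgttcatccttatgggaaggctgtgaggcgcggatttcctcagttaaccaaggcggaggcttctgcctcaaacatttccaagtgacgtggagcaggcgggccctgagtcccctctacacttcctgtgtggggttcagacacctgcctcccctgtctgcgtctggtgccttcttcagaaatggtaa
Cd247, chr1:165788431-165788730, plus strand: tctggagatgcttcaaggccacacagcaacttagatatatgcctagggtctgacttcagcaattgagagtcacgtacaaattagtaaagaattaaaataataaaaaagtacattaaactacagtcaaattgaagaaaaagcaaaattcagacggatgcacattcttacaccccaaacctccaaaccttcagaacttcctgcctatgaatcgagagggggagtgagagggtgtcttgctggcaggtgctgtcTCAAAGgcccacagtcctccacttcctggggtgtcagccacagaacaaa

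The motifs were CTTTGA for TCF and LEF factors, CAGCTG for E proteins, AGATAA for GATA factors, TGTGGT for RUNX factors, CCGGAA for ETS factors and TATAAA for the TATA box, searched on both strands. The TCF and LEF letters occurred at 2 places in the Cd3d promoter, at 1 in that of Cd247 and in 1 Lef1 promoter, thus in 3 of 8 genes, while 16.0% of all 32851 promoters of this length held them. The E protein letters were found in 5 of 8 genes (Cd3g, Cd8a, Tcf7, Lef1 and Foxp3) beside 16.3% of all promoters. The GATA letters were found in 3 genes (Cd3g, Lef1 and Foxp3; 11.2% of all promoters). The TATA box letters were found in 3 (Tcf7, Lef1 and Foxp3; 13.6%), in Tcf7 and Lef1 only on the strand opposite the gene. The ETS letters were found in Tcf7 alone (14.9%) and the RUNX letters in none of the 8 (16.8%). Tcf7, Lef1 and Foxp3 entered with several promoters each, so a gene of this kind had more chances to match. The shares of all promoters compare directly only with counts by promoter. Of the 13 promoters, 3 held the TCF and LEF letters, 5 the E protein and 3 the GATA letters. The TATA box letters were in 3 of the 13, the ETS letters in 1 and the RUNX letters in 0. None of the motifs matched in the Cd3e window. Such matches describe letters in a window and do not show binding.

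Fragments summed to 46133338 over the genes of WT and to 42953129 over those of ILN/ILN. A fragment number was recovered for each gene from its signal per kilobase and its length, and ratios were scaled by these totals. Intervals in parentheses are exact conditional 95% intervals that cover counting error alone and neither differences between animals nor between dissections. A count of 0 allows up to 3 fragments, or 0.0650 per 1000000 in WT and 0.0698 in ILN/ILN. In bulk tissue, fewer cells of a type and less RNA per cell cannot be told apart.

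All 10 genes were lower in the ILN/ILN library. Their summed fragments were 6113 in WT and 1826 in ILN/ILN, or 133 and 42.5 per 1000000, a level 3.12-fold lower (2.96 to 3.29). Every gene passed the minimum of 20 fragments in either library, and 8 of the 10 were at least 2-fold lower, where 6.03% of the 13704 genes past that minimum were. None was at least 2-fold higher, where 1.47% of all genes were. All 10 genes had their whole interval below 1, as did 29.5% of the genes past the minimum. A ratio below 1 was held by 49.5% of those genes. The 8 genes kept their whole interval beyond 2-fold, a rule met by 3.06% of all genes, and 6 were at least 3-fold lower (2.96% of all genes). The median log2 ratio of ILN/ILN over WT was -1.71 for the 10 genes and 0.0047 for all genes counted. These genes were picked with results of the same libraries known, so the counts describe them and are no test.

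**Figure D1:**
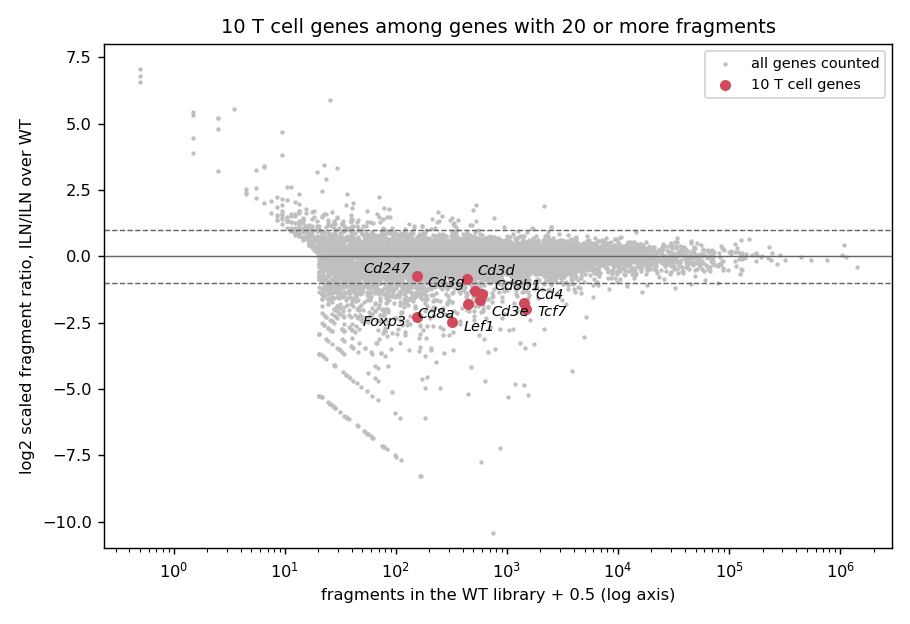
Log2 scaled fragment ratio of ILN/ILN over WT against fragments in the WT library, on a log axis, for all 13704 genes with 20 or more fragments in either library (grey) and the 10 T cell genes (red). The solid line marks no difference and the dashed lines 2-fold, and 8 of the 10 red points lie below the lower dashed line.

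Among the receptor chains, Cd3e, which encodes CD3 epsilon, had 574 fragments in WT and 169 in ILN/ILN and was 3.16-fold lower (2.66 to 3.78). Cd3g, which encodes CD3 gamma, had 511 and 193 fragments and was 2.47-fold lower (2.08 to 2.92). Cd3d, which encodes CD3 delta, had 437 and 224 fragments and was 1.82-fold lower (1.54 to 2.14). These chains thus all had fewer fragments in ILN/ILN, but the size ran from under to over 2-fold. Cd247 encodes the zeta chain, which carries most of the signalling motifs of the complex. It had 155 and 85 fragments, the smallest difference of the 10 genes at 1.70-fold lower (1.29 to 2.24). Summed, the CD3 and zeta chains had 1677 fragments in WT and 671 in ILN/ILN, 2.33-fold lower (2.13 to 2.55).

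The difference between chains was larger than counting error in some pairs. The fold of Cd3e was 1.74 times that of Cd3d (1.37 to 2.22), its neighbour in the same gene cluster, and 1.86 times that of Cd247 (1.34 to 2.58). Against Cd3g it was 1.28 times (1.004 to 1.64), an interval whose lower end lies near 1. In all, 21 pairs of genes or sums were compared in this way, with no adjustment for their number. The Cd3e exons overlap those of the antisense gene Gm48719 in the GRCm38 annotation, and Cd247 exons overlap Pou2f1 on the opposite strand and Gm16565 on the same strand. The labels do not say whether counting used strand, and for Gm16565 strand would not separate the genes, so Cd3e and Cd247 both carry that uncertainty. Pou2f1 itself had 156 and 175 fragments.

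The coreceptor genes, summed, were 3.19-fold lower (2.94 to 3.47), a larger factor than that of the summed receptor chains, although Cd3e alone lay above Cd8b1. Cd4 had 1436 fragments in WT and 394 in ILN/ILN, 3.39-fold lower (3.03 to 3.80). Cd8a, which encodes the alpha chain of CD8, had 447 and 120 fragments, 3.47-fold lower (2.83 to 4.28). Cd8b1, which encodes the beta chain that pairs with it on most cytotoxic T cells, had 590 and 207 fragments, 2.65-fold lower (2.26 to 3.12). The intervals of Cd4 and Cd8a overlapped widely, and the fold of Cd8a was 1.31 times that of Cd8b1 (1.004 to 1.70). Relative to the summed CD3 and zeta chains, the fold of Cd4 was 1.46 times as large (1.26 to 1.69) and that of summed Cd8a and Cd8b1 1.27 times (1.09 to 1.48).

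In fragments, whether the fold of Cd4 differed from that of CD8 genes beyond counting error depended on the CD8 chain used. Per kilobase, Cd4 fragments were 3.14 times those of Cd8a in WT (2.82 to 3.50) and 3.21 times in ILN/ILN (2.61 to 3.97). The quotient of the folds of Cd4 and Cd8a was 0.978 (0.770 to 1.24), an interval that includes 1. Against Cd8b1, the level of Cd4 per kilobase was 1.07 times in WT (0.973 to 1.18) and 0.838 times in ILN/ILN (0.706 to 0.996), and the quotient of folds was 1.28, with an interval of 1.05 to 1.56 that lies above 1. Against summed Cd8a and Cd8b1 the quotient was 1.15 (0.969 to 1.36), which again includes 1. The level of Cd4 relative to Cd8a depended on the estimate, since in the deposited values it was 1.41 in WT and 1.25 in ILN/ILN. From the deposited values the quotient of folds was 1.13 for Cd4 over Cd8a and 1.28 for Cd4 over Cd8b1. The quotient of Cd8a over Cd8b1, 1.31 from fragments, was 1.14 from these values, so the contrast between the CD8 chains was smaller there.

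Counted in fragments, the transcription factor genes had the largest folds of the 10. Lef1 had 322 fragments in WT and 53 in ILN/ILN and was 5.66-fold lower (4.22 to 7.71). It ranked at place 205 from the lowest ratio among the 13704 genes counted. Tcf7 had 1487 and 352 fragments, 3.93-fold lower (3.50 to 4.43), and ranked at place 299. Foxp3 had 154 and 29 fragments, 4.94-fold lower (3.31 to 7.63), and ranked at place 234. At the other end, Cd3d stood at place 1016 and Cd247 at 1166. The fold of Tcf7 was 1.69 times that of the summed CD3 and zeta chains (1.46 to 1.96), the fold of Lef1 2.43 times (1.79 to 3.36) and the fold of Foxp3 2.12 times (1.41 to 3.31). Between the related factors, the fold of Lef1 was 1.44 times that of Tcf7 (1.05 to 2.01). Relative to Cd4, the fold of Foxp3 was 1.46 times as large, with an interval of 0.958 to 2.28 that includes 1.

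**Figure D2:**
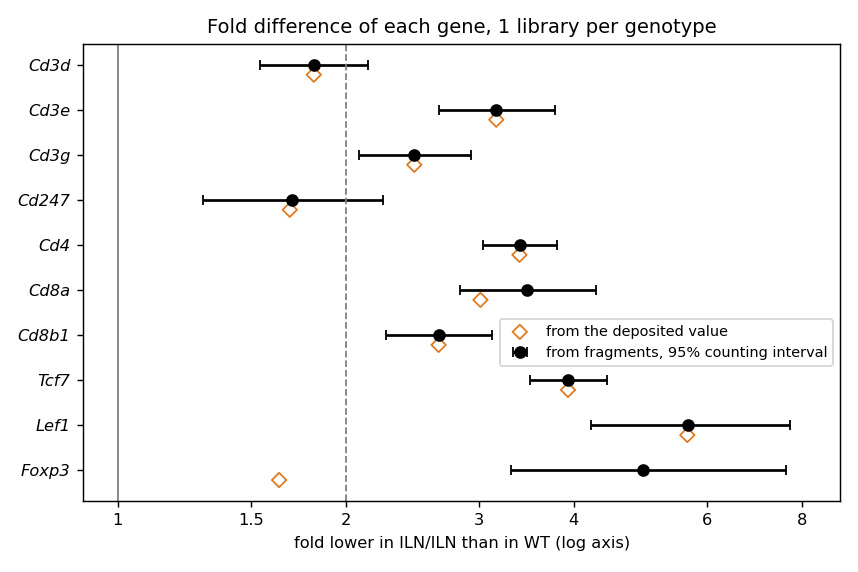
Fold by which each of the 10 genes was lower in the ILN/ILN than in the WT library, on a log axis, from fragments (black points, with bars for 95% counting intervals) and from the deposited value (orange diamonds). The solid line marks no difference and the dashed line 2-fold. Cd247 and Cd3d lie under 2-fold, Lef1 lies highest at 5.66, and the estimates part for Foxp3, at 4.94 from fragments and 1.63 from the deposited value.

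The deposited FPKM-like value had the same direction for every gene but not the same size. In the files this value equals whichever is higher of an original estimate and a derived one, and for 7 of the 10 genes it came from the fragments in both libraries. For Cd247, with 5 isoforms, and Cd8a, with 2, it came from the derived estimate in both libraries. For Foxp3, with 3 isoforms, it came from fragments in WT and from the derived estimate in ILN/ILN. The deposited Foxp3 value was 0.990 in WT and 0.606 in ILN/ILN, which is 1.63-fold lower. Its original estimates were 48.0 and 9.05 fragments per kilobase, while its derived estimates went the other way, at 13.7 and 27.4. The size of the Foxp3 difference therefore rests on which estimate is used. From the deposited values Foxp3 had the smallest fold of the 10 genes, and its fold was 0.772 times that of the summed CD3 and zeta chains and 0.482 times that of Cd4, both opposite in direction to the quotients from fragments. Foxp3 exons also overlap the opposite-strand genes Ccdc22 and Ppp1r3f and the same-strand antisense RNA gene Flicr in the GRCm38 annotation. Ccdc22 had 995 and 853 fragments, far more than Foxp3 in either library. Lef1 exons overlap the opposite-strand gene Gm43352 in that annotation, and Gm43352 and Flicr were not analysed here.

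Deposited values for the other genes were as follows. Tcf7 was highest in WT, at 14.2 against 3.60 in ILN/ILN. Cd247 was at 12.9 and 7.62, Cd3g at 11.1 and 4.50, and Cd4 at 9.79 and 2.89. These 4 genes held the top places in WT, whereas in ILN/ILN Cd247 stood first. Cd8b1 was at 9.14 and 3.44, Cd3e at 8.68 and 2.75, Cd3d at 7.17 and 3.95, and Cd8a at 6.96 and 2.31. Lef1 was low in both libraries, at 2.78 and 0.492. On the log2(value + 1) scale of this column 7 of the 9 genes with a value of at least 1 were at least 2-fold lower, where 1.72% of 11556 such genes were. With 5 added to the deposited value in place of 1, Tcf7 alone of the 10 genes remained past 2-fold, beside 0.365% of genes with at least 20 fragments.

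**Figure D3:**
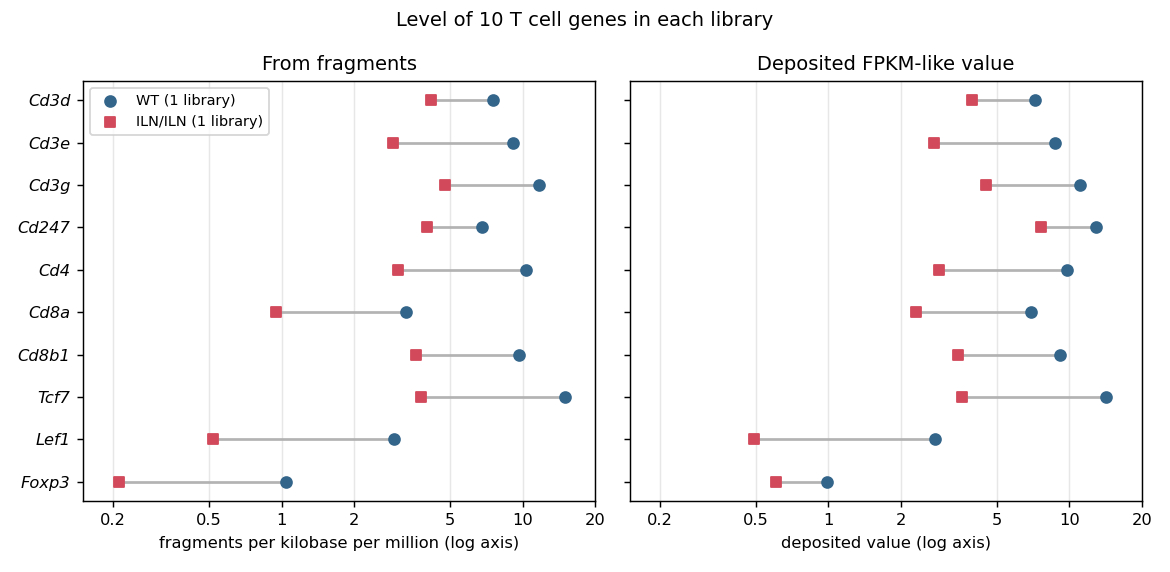
Level of each of the 10 genes in the WT (blue circles) and ILN/ILN (red squares) libraries, as fragments per kilobase per 1000000 (left) and as the deposited FPKM-like value (right), both on log axes, with 1 library per point. Every square lies to the left of its circle in both panels, and the Foxp3 pair is closer together on the right than on the left.

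On the scale of fragments per kilobase per 1000000, the order of the genes differed between the libraries. In WT, Tcf7 had the highest level at 14.9, followed by Cd3g at 11.7, Cd4 at 10.3, Cd8b1 at 9.62, Cd3e at 9.14, Cd3d at 7.54 and Cd247 at 6.79. Cd8a at 3.28, Lef1 at 2.93 and Foxp3 at 1.04 closed the order. Beyond counting error, Tcf7 exceeded Cd3g, Cd3g exceeded Cd4, Cd3e exceeded Cd3d, Cd247 exceeded Cd8a and Lef1 exceeded Foxp3. The other neighbours (Cd4 and Cd8b1, Cd8b1 and Cd3e, Cd3d and Cd247, Cd8a and Lef1) had intervals of their ratio that include 1.

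In ILN/ILN the receptor chains Cd3g at 4.73, Cd3d at 4.15 and Cd247 at 3.998 came first and Tcf7 at 3.79 next. Then came Cd8b1 at 3.62, Cd4 at 3.04, Cd3e at 2.89, Cd8a at 0.946, Lef1 at 0.517 and Foxp3 at 0.211. The first 5 places did not differ between neighbours beyond counting error, and neither did Cd4 from Cd3e. Cd8b1 exceeded Cd4 with an interval of 1.004 to 1.42, Cd3e exceeded Cd8a, Cd8a exceeded Lef1 and Lef1 exceeded Foxp3. Levels of Cd247 and Cd8a in this order rest on the gene length in the files, 495 and 2952 bases, with which their deposited values were not made. The place of Foxp3 rests on the estimate too. Its deposited value in ILN/ILN, from the derived estimate, was 0.606 and lay above that of Lef1 at 0.492.

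Genes that carry the receptor signal were mostly lower as well. On a list of 28 such genes, all past the minimum, 15 were at least 2-fold lower and none 2-fold higher, with a median log2 ratio of -1.03. Beside this count and those of the lists that follow stand the shares over all 13704 genes, 6.03% lower and 1.47% higher. With so low a share higher, none 2-fold higher on a short list says little. Trat1, which encodes a transmembrane adaptor of T cells, had 70 fragments in WT and 12 in ILN/ILN (5.43-fold lower; 2.92 to 11.0). Sit1, which encodes an inhibitory adaptor, had 129 and 33 (3.64-fold lower; 2.47 to 5.51). Lat, which encodes the central adaptor that ZAP-70 phosphorylates, had 592 and 179 (3.08-fold lower; 2.60 to 3.66). Ptprcap, whose product associates with CD45, had 733 and 235 (2.90-fold lower; 2.50 to 3.38).

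Kinases next to the receptor were chosen after their values were seen. Trat1, Sit1, Lat and Ptprcap were named for having the largest differences on the list of receptor signalling genes. Any other gene on it therefore had a smaller factor, and these values cannot show whether kinases and adaptors differed. Lck, the kinase bound to CD4 and CD8, had 1225 and 406 fragments (2.81-fold lower; 2.51 to 3.15). Zap70, the kinase that docks on phosphorylated CD3 and zeta chains, had 376 and 133 (2.63-fold lower; 2.15 to 3.23). Fyn, a kinase of many cell types, had 2488 and 2011 (1.15-fold lower; 1.09 to 1.22). Only Plcg1, at 4128 and 4671, and Itpkb, at 2181 and 2367, were higher in ILN/ILN on this list.

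Among 20 surface and costimulatory genes of T cells, 19 passed the minimum, 14 were at least 2-fold lower and none 2-fold higher, with a median log2 ratio of -1.23. Ctla4, an inhibitory receptor, had 29 fragments in WT and 2 in ILN/ILN, with a wide interval (13.5-fold lower; 3.42 to 117). Icos, a costimulatory receptor, had 72 and 14 (4.79-fold lower; 2.68 to 9.19), Btla, an inhibitory receptor that B cells carry too, 500 and 98 (4.75-fold lower; 3.82 to 5.96), and Cd5, a T cell receptor of inhibitory signals, 393 and 95 (3.85-fold lower; 3.07 to 4.87). Cd28, chosen after its values were seen, had 27 and 22 fragments, and the interval of its fold (0.627 to 2.11) includes 1.

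Genes of resting T cells that circulate through lymph nodes all had a ratio below 1 on a list of 12. Of all genes counted, 49.5% had a ratio below 1. On the list 6 were at least 2-fold lower and the median log2 ratio was -0.93. Dapl1 had 135 fragments in WT and 21 in ILN/ILN (5.99-fold lower; 3.76 to 9.98). Il7r, the receptor subunit for the survival cytokine IL-7, had 459 and 102 (4.19-fold lower; 3.37 to 5.24), and its fold was 1.80 times that of the summed CD3 and zeta chains (1.42 to 2.30). Ccr7, which guides cells into the T cell zone, had 905 and 294 (2.87-fold lower; 2.51 to 3.28). The list also holds genes of other tissues, and S1pr1, chosen after its values were seen, had 3295 and 3065 fragments. The interval of its fold (0.953 to 1.05) includes 1.

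Of 24 other regulators of the T lineage, all past the minimum, 8 were at least 2-fold lower, none 2-fold higher and 6 had a ratio above 1, with a median of -0.77. Gata3, which T helper cells and luminal mammary epithelium both use, had 204 and 37 fragments (5.13-fold lower; 3.60 to 7.50). Ikzf3, which encodes a lymphoid zinc finger factor, had 910 and 260 (3.26-fold lower; 2.84 to 3.75). Bcl11b, a factor of T cell commitment, had 185 and 63 (2.73-fold lower; 2.04 to 3.70), and Tox 165 and 59 (2.60-fold lower; 1.92 to 3.57).

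Foxp3 was set beside 16 other genes used for regulatory T cells. Of these 15 passed the minimum, 6 were at least 2-fold lower, none was 2-fold higher and 5 had a ratio above 1, with a median log2 ratio of -0.83. Besides Ctla4, Gpr83 had 40 and 5 fragments (7.45-fold lower; 2.94 to 24.2), Ikzf4 86 and 25 (3.20-fold lower; 2.03 to 5.22), and Folr4, which encodes folate receptor 4, 41 and 12 (3.18-fold lower; 1.64 to 6.65). Il2ra, the alpha chain of the IL-2 receptor, had 173 and 73 (2.21-fold lower; 1.67 to 2.94), and Ikzf2 had 65 and 73. Il2ra and Ikzf2 were picked with their values already known. Many of these counts are small, so their folds are imprecise.

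**Figure D4:**
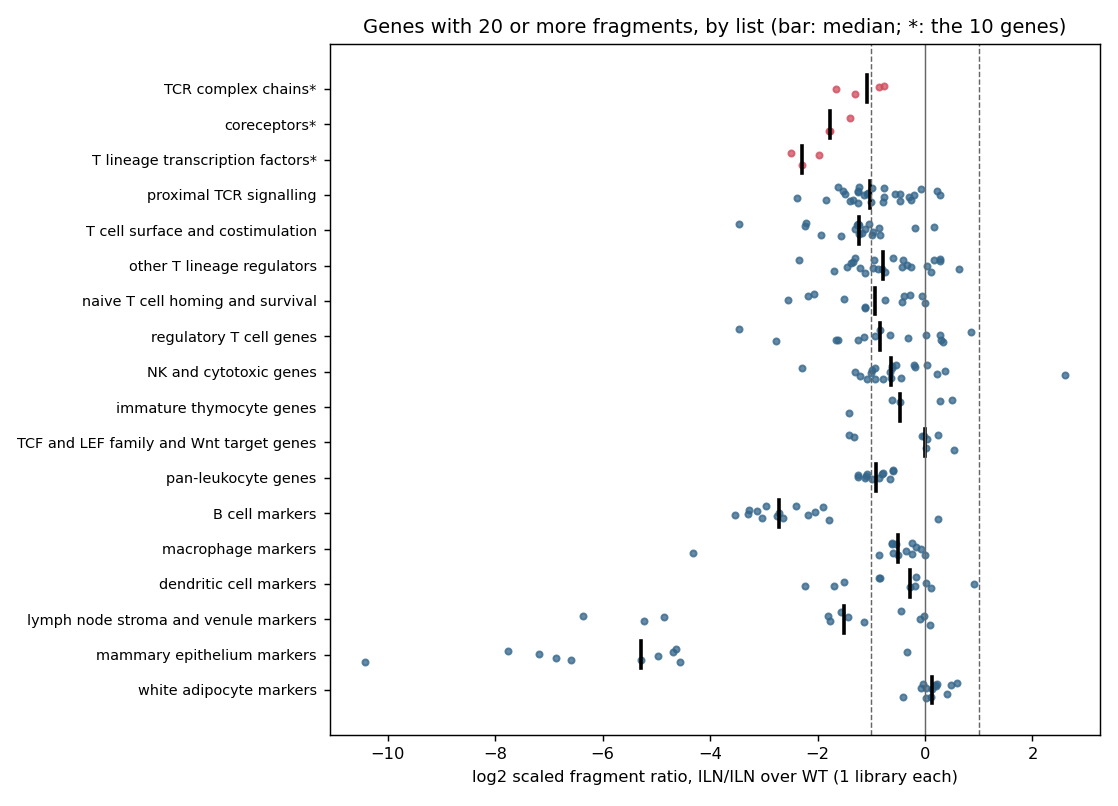
Log2 scaled fragment ratio of ILN/ILN over WT for each gene with 20 or more fragments in either library, by gene list, with 1 point per gene, the 10 T cell genes in red and a black bar at each median. The solid line marks no difference and the dashed lines 2-fold. Medians run from -5.29 for mammary epithelium markers to 0.13 for white adipocyte markers, and the T lineage transcription factors lie at -2.29.

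Natural killer and cytotoxic genes, which share functions with CD8 T cells, had a median log2 ratio of -0.64. Of 25, 21 passed the minimum, 5 were at least 2-fold lower and 1 was 2-fold higher. Gzmk, a granzyme gene, was the higher one, with 11 fragments in WT and 65 in ILN/ILN, a ratio of 6.35 (3.32 to 13.3). Prf1, which encodes perforin, had 207 and 83 (2.32-fold lower; 1.79 to 3.03), and Klrc1, a lectin-like receptor gene, 23 and 4 (5.35-fold lower; 1.83 to 21.3). Eomes, a factor of cytotoxic cells, had 130 and 49 fragments (2.47-fold lower; 1.77 to 3.51), but its deposited value was 0.759 in WT and 1.99 in ILN/ILN, in the opposite direction. Klrc2 had 0 fragments in both libraries, but its deposited value was 1.14 in WT, from the derived estimate, and 0 in ILN/ILN. Klra7 had 0 fragments in WT, with a deposited value of 0.078 there, also from the derived estimate. Klrd1 had 2 fragments in WT and 0 in ILN/ILN, within the limit of 3 for a count of 0, so its zero shows no difference.

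Genes of immature thymocytes were close to the limit of a count of 0. Rag2 and Arpp21 had 0 fragments in both libraries and Ptcra, a chain of the receptor before rearrangement, had 1 in each. Rag1 had 25 and 15 and Dntt 24 and 8. Of 8 genes on this list 5 passed the minimum and 1 of these, Dntt, was at least 2-fold lower. Cd1d1, at 4374 and 5769, is used by other cells too and had a ratio above 1.

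Tcf7 and Lef1 belong to a factor family that also answers Wnt signals in the mammary gland. Of 12 other members and Wnt target genes 8 passed the minimum, 2 were at least 2-fold lower, none was 2-fold higher and the median log2 ratio was -0.0012. The 2 lower genes were Lgr5, a Wnt receptor partner, with 24 and 8 fragments, and Rnf43, which removes Wnt receptors, with 41 and 15. Nkd1 had 378 and 510 fragments and Znrf3 260 and 286. Tcf7l1, at 3706 and 3328, and Tcf7l2, at 780 and 731, the other genes of the family, and the target Axin2, at 548 and 506, were picked with their values already known. Their folds were 1.04 (0.989 to 1.09), 0.993 (0.897 to 1.10) and 1.01 (0.892 to 1.14) lower in ILN/ILN.

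Markers of leukocytes and of other cells in the gland differed between the libraries to unlike degrees. Their part in the T cell values was not tested. All 12 pan-leukocyte genes had a ratio below 1 (49.5% of all genes counted) and 5 were at least 2-fold lower (median -0.92). Their summed level was 1277 fragments per 1000000 in WT and 690 in ILN/ILN, and none was at 0. Ptprc, which encodes CD45 of all leukocytes, had 3051 and 1432 fragments (1.98-fold lower; 1.86 to 2.11). The 10 T cell genes summed to 2.00 fragments for each Ptprc fragment in WT (1.92 to 2.09) and 1.28 in ILN/ILN (1.19 to 1.37), so their fold was 1.57 times that of Ptprc (1.45 to 1.71). From the deposited values this quotient was 1.14. For the CD3 and zeta chains alone it was 1.17 times from fragments (1.05 to 1.31) but 0.929 from the deposited values, in the opposite direction. Against the summed pan-leukocyte list the 10 genes had a fold 1.68 times as large (1.59 to 1.78), and 1.39 times from the deposited values.

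B cell markers had a lower median than the 10 T cell genes. Of 15, all past the minimum, 14 were at least 2-fold lower, none was 2-fold higher and the median log2 ratio was -2.73, with summed levels of 484 and 146 fragments per 1000000 and none at 0. The exception was Ebf1, at 2920 and 3215, a gene that fat and stromal cells express too, chosen after its values were seen. Pax5, the factor of B cell identity, had 329 and 26 fragments (11.8-fold lower; 7.90 to 18.3). Cd79a and Cd79b, the B cell counterparts of the CD3 chains, were picked with their values already known. The fold of Cd79a was 3.50 times that of the summed CD3 and zeta chains (3.09 to 3.98) and the fold of Cd79b 1.49 times (1.33 to 1.68).

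Markers of lymph node stroma and high endothelial venules had a median log2 ratio of -1.50. Of 13 with a row 12 passed the minimum and 8 were at least 2-fold lower, with summed levels of 761 and 513 fragments per 1000000. Chst4, which encodes a sulfotransferase of these venules, had 44 fragments in WT and 0 in ILN/ILN, at least 13.7-fold lower with 3 fragments per library as the limit. Ltb, a lymphotoxin made by lymphocytes, had 1434 and 380 (3.51-fold lower; 3.14 to 3.94). Glycam1, a mucin-like protein counted here as a marker of these venules, had 1423 and 45, and Cxcl13, the attractant of B cell follicles, 1560 and 38. Which cells of the gland gave the fragments of these genes was not tested. The labels do not say whether a lymph node was dissected with the gland, and genotype and dissection cannot be told apart with 1 library each.

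Myeloid markers, which matter because some macrophages and dendritic cells carry CD4 or CD8 alpha, differed less. All 13 macrophage markers had a ratio below 1, beside 49.5% of all genes counted. The ratio of Cx3cr1, chosen after its values were seen, was 0.998 (0.790 to 1.26). Of the 13, 1 was at least 2-fold lower (Marco, at 3830 and 179). The median of the macrophage markers was -0.50, with summed levels of 4064 and 2877 fragments per 1000000. Of 12 dendritic cell markers 11 passed the minimum, 3 were at least 2-fold lower and the median was -0.28, with summed levels of 188 and 139. The 3 were Ccr7 and Btla, which lymphocytes share, and Siglech, at 513 and 147. None of the macrophage or dendritic cell markers was at 0.

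Most epithelial markers were at or near 0 in ILN/ILN, with Trp63 as an exception. Of 14, 11 passed the minimum, 10 were at least 2-fold lower and the median was -5.29, or -4.63 with genes at 0 set to 3 fragments. Krt8, Krt5, Krt14, Elf5, Wap, Csn2 and Csn3 were at 0 in ILN/ILN and Csn2 also in WT. Wap had 1 fragment in WT and Csn3 had 2, within the limit of 3 for a count of 0, so their zeros show no difference. The summed levels of the epithelial markers were 83.8 and 4.07 fragments per 1000000. Trp63, a factor of basal cells chosen after its values were seen, had 147 and 109 fragments (1.26-fold lower; 0.973 to 1.62), and at 2.54 per 1000000 it made up most of the ILN/ILN sum. White adipocyte markers had a median of 0.13, with 0 of 13 past 2-fold in either direction, none at 0 and summed levels of 78228 and 72687.

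With 2 libraries the pattern of a gene is 1 ratio, so likeness to the receptor complex is only closeness of ratios. Outside the 10 genes, the 3 genes with at least 100 fragments in either library and a fold nearest to that of the summed CD3 and zeta chains were Hap1, at 100 and 40 fragments, Trpm2, at 180 and 72, and Gnal, at 993 and 397. Their folds were 2.33 lower in each case, with intervals of 1.60 to 3.45, 1.76 to 3.10 and 2.07 to 2.62.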

How the data were processed

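Polyadenylated RNA of 2 mammary gland libraries, 1 per genotype, was sequenced on 2 lanes each of an Illumina GAIIx with a strand-marking dUTP protocol, per the labels' protocols. Alignment tools in the submitters' processing notes are TopHat 1.4.1 and Bowtie 0.12.3, listed with bedtools and the build mm9. How genes were counted, with which annotation and whether by strand, is not stated there.

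Per the file headers, the authors deposited an FPKM-like value, its log2(value + 1), and a signal per kilobase in an original, a derived and a final form. Multiplying the original signal by gene length gave whole numbers (tolerance 0.01) in 100% of genes with a length, here called fragments. The labels do not say whether these are reads or read pairs. Precision is set by these counts, and sequenced fragments are not independent molecules.

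Fragment ratios were scaled by library totals with exact conditional (Clopper-Pearson) 95% intervals (Python 3.11.15, scipy 1.17.1). Medians add 0.5 fragment. Genes with at least 20 fragments in either library were counted, and 38 genes under the authors' length limit were left out. The interval and call steps were run on simulated libraries drawn with counting (Poisson) error alone. That simulation checks the calculation and cannot speak to differences between animals or dissections. The 10 genes and the lists were chosen with earlier results of these data known. Named from each list were at most 4 genes, those farthest from a log2 ratio of 0, plus marker genes at 0 and genes said to be picked with their values known. The files' build differs from GRCm38, so only RefSeq promoter coordinates, in GRCm38.p6, are given. Alternatives covered scaling, source of the value, minimum, threshold and promoter window. Values of some single genes on the lists are not reported here.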

Additional observations from a re-analysis of the deposited data

How the results depend on the processing

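The direction held for all 10 genes under each of 7 alternative scalings or values. Under the 4 other scalings each of the 40 gene values stayed within its counting interval and the count of genes at least 2-fold lower was 8. These scalings were only 0.981 to 1.001 times the main one, too small a change to carry a value out of its interval. With the deposited value in place of fragments 16 of 30 gene values moved beyond their interval, Foxp3 with every pseudocount. With a pseudocount of 0.1 Foxp3 alone moved. The other moves came with pseudocounts of 1 or 5, which by arithmetic pull ratios of low values toward 1. The deposited value with a pseudocount of 5 left 1 of the 10 genes past 2-fold, beside 0.365% of all genes, and a median log2 ratio of -0.73. The log2 ratio of the summed CD3 and zeta chains was -1.22 from fragments, and -1.04, -1.08 and -0.91 from the deposited value with pseudocounts of 1, 0.1 and 5. The level of Cd4 relative to Cd8a was 1.41 in WT and 1.25 in ILN/ILN from the deposited value. With the promoter window restricted to the 250 bases before the start, the E protein letters were found in 3 genes in place of 5. Changing the minimum to 100 fragments or to 1 left the count at 8, beside 3.22% and 11.9% of all genes. With a threshold of 1.5-fold the count was 10, beside 11.6% of all genes, and with 3-fold it was 6, beside 2.96%. An alternative chosen after seeing the data took the quotients of folds between genes from the deposited value, and 16 of 21 stayed within their interval. The quotient of Foxp3 over the CD3 and zeta chains became 0.772 and that of these chains over Ptprc 0.929, both reversed. It was 0.482 for Foxp3 over Cd4, 1.14 for the 10 genes over Ptprc and 1.39 for the 10 genes over the pan-leukocyte list. Apart from the arithmetic of the pseudocount, the causes of these shifts were not tested.

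Leaving out a library was not possible with 1 per genotype. No paired analysis was possible because each genotype has 1 library and the labels give no replicate number. Depth limits the low genes most, such as Foxp3 with 29 and Lef1 with 53 fragments in ILN/ILN.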
